A study of Mus musculus with 8 samples.

Results

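Open chromatin regions that ranked among the top ATAC-seq peaks of LSK+ bone marrow cells in both genotypes, and among those of no LSK- library, were examined. In ATAC-seq, the Tn5 transposase inserts sequencing adapters into accessible DNA, so that peaks of fragments mark open chromatin. Peaks were ranked in each of the 8 libraries by the −log10 p of the peak caller, and the top 29829 of each, the size of the smallest list, were merged into 53239 regions on chromosomes 1 to 19 and X. Of the 52053 autosomal regions, 1343 (2.58%) held a top peak of all 4 LSK+ libraries and of none of the 4 LSK- libraries. These 1343 are called LSK+ top regions below. They were selected on their measured ranks, so their presence in LSK+ and absence from LSK- top lists is a description and was not tested. The mirrored rule (all 4 LSK- libraries, no LSK+ library) gave 1618 LSK- top regions (3.11%), which served for comparison.

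The study compared wild-type (WT) mice with XistΔ/Δ mice, in which a floxed Xist (Xist 2lox/2lox) was deleted by Vav-iCre, a Cre recombinase driven by the Vav1 promoter in blood cells. All mice were females of 4.5 months on a mixed background (129Sv4/Jae x B6). LSK+ cells were lineage-negative, SCA-1+ and c-KIT+, and LSK- cells were lineage-negative, SCA-1- and c-KIT+. Each of the 4 groups (LSK+ WT, LSK+ XistΔ/Δ, LSK- WT and LSK- XistΔ/Δ) had 2 libraries of about 10000 cells each.

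The LSK+ fraction holds hematopoietic stem cells and multipotent progenitors, and the LSK- fraction holds progenitors committed to the erythroid, megakaryocyte, granulocyte and monocyte lineages. Accessible sites away from promoters are often enhancers, short stretches of DNA on which transcription factors assemble, and their set differs more between cell types than the set of open promoters does. In stem and progenitor cells, ETS factors (ERG, FLI1, PU.1), RUNX1 and the GATA factors are among the proteins that bind such sites. GATA2 acts in stem cells, and GATA1 drives the erythroid and megakaryocyte programs.

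The lists held 29829 to 91590 peaks, and the background pileup, a measure of depth in fragments solved from the fold and p of the peaks, ran from 0.482 (LSK+ WT replicate 2) to 3.87 (LSK- XistΔ/Δ replicate 1). The rank limit stood at a −log10 p of 4.26 in LSK+ WT replicate 2 and of 46.8 in LSK- XistΔ/Δ replicate 1, so a region outside a top list could still hold a peak. A peak within 3 kb of the Xist transcription start site (TSS) was listed in 4 of 4 WT libraries and in 1 of 4 XistΔ/Δ libraries, the library labelled LSK- XistΔ/Δ replicate 2, where its percentile in the full list was 26.9. Leaving that library out gave 1525 LSK+ top regions. Most promoter markers did not tell the fractions apart. Their peaks were counted at any rank of the full lists, which differ in length. Of 7 genes of committed progenitors, Gata1 had a promoter peak in 0 of 4 LSK+ and 4 of 4 LSK- libraries, Ms4a3 in 2 and 4, Elane in 3 and 4, and Klf1, Mpo, Cebpe and Csf1r in all 8. Of 8 genes of LSK+ cells, Procr had one in 3 LSK+ and 2 LSK- libraries and Slamf1 in 2 and 4. The LSK+ library without a peak at Elane or Procr was WT replicate 2, whose list was the shortest (29829 peaks). The part of list length in these counts was not tested. Ly6a, which encodes SCA-1, had a promoter peak in 1 of 4 LSK+ and 1 of 4 LSK- libraries and Kit, Flt3, Mecom, Hlf and Meis1 in all 8. Of 12 marker genes of mature blood, endothelial, stromal and mast cells, 5 (Cd3e, Cd4, Cd8a, Cd79a and Ly6g) had no promoter peak in any library and 3, Pecam1 and Cdh5 among them, had one in all 8. None of the 12 had an LSK+ top region.

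The sequence around the summits is shown for the 6 LSK+ top regions with the highest ranks and for the 3 strongest at stem cell genes, followed by the 2 strongest LSK- top regions for contrast. Each window holds 200 bases of the plus strand of GRCm38 (mm10), 100 on each side of the summit. Capitals mark matches, on either strand, to the letters of 5 motifs. The letters AGATAA stand for the site of the GATA factors. RUNX factors are represented by TGTGGT, the core of their site. The site of PU.1, an ETS factor of myeloid and lymphoid cells, was searched as GAGGAAGT. For AP-1, the dimer of FOS and JUN proteins, the letters were TGANTCA with N for any base. An ETS site of the type bound by ERG and FLI1 was written as CAGGAAG.
Mgat4b, chr11:50233065-50233264: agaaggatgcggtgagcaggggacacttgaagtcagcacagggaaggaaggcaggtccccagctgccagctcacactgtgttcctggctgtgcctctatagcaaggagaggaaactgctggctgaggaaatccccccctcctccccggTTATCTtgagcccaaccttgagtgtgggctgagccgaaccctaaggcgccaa
Elmsan1, chr12:84206695-84206894: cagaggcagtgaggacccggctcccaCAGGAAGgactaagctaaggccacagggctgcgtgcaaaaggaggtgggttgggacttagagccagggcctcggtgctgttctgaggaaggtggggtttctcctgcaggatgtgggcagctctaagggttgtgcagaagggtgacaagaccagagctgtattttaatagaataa
Astn2, chr4:65403346-65403545: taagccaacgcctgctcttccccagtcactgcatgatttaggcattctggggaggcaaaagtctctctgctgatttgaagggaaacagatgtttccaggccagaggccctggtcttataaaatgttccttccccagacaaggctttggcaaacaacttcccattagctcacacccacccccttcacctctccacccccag
Rab11fip4, chr11:79739305-79739504: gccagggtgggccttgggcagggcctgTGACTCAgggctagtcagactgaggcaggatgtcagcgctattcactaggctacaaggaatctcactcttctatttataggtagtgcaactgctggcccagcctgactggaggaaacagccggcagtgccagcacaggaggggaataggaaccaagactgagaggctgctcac
Adra1b, chr11:44136126-44136325: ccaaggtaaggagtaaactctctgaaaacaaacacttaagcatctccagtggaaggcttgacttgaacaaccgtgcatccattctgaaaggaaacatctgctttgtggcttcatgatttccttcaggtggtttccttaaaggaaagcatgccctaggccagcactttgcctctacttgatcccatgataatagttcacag
Tfcp2l1, chr1:118711680-118711879: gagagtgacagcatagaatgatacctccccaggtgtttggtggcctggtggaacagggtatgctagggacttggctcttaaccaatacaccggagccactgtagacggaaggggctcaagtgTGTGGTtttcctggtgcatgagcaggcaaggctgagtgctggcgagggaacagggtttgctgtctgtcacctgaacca
Runx1, chr16:92904085-92904284: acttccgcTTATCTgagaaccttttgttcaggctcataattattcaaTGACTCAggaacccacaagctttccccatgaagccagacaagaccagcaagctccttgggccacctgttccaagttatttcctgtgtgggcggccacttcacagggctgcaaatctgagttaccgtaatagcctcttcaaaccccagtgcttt
Vwf, chr6:125594918-125595117: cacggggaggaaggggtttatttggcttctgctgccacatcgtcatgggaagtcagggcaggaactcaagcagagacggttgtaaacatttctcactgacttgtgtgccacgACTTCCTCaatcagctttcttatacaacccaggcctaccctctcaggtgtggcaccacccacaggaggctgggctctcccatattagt
Nr4a1, chr15:101244115-101244314: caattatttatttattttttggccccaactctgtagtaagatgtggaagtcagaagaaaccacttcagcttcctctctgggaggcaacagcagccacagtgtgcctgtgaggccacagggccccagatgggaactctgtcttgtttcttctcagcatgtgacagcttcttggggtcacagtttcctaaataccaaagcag
LSK- top region of Hagh, chr17:24859100-24859299: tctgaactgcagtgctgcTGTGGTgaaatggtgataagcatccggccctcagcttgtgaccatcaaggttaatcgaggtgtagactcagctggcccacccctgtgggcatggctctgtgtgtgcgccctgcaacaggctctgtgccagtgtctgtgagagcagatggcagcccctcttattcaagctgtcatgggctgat
LSK- top region of Ak7, chr12:105760127-105760326: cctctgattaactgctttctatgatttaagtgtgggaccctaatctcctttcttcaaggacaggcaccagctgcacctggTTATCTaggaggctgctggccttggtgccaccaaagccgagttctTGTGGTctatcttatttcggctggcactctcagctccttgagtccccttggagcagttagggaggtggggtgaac

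Of these 9 LSK+ windows, those of Mgat4b and Runx1 held the GATA letters, and those of Astn2, Adra1b and Nr4a1 held none of the 5 motifs. Among the LSK- windows, that of Ak7 held GATA and RUNX letters and that of Hagh RUNX letters.

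Over all LSK+ top regions away from promoters, the GATA letters were rare and the ERG/FLI1-type ETS letters were common. Within 100 bases of the summit, AGATAA occurred in 73 of 1091 TSS-distal LSK+ top regions (6.69%), against 723 of 1311 TSS-distal LSK- top regions (55.1%) and 18.3% of the 32679 TSS-distal regions on the autosomes. CAGGAAG occurred in 356 of the 1091 (32.6%), against 12.2% of LSK- top regions and 19.3% of all TSS-distal regions. This motif was added to the search after the values of the other motifs had been seen. A different ETS motif, among those already searched, occurred in 3.30% of LSK+ top regions, 0.992% of LSK- top regions and 2.18% of all TSS-distal regions. The PU.1 letters occurred in 10.9%, 3.28% and 8.80%, and the AP-1 letters in 12.6%, 7.40% and 9.74%, in the same order. The RUNX letters did not set the sets apart, with 32.7%, 33.0% and 29.9%. Part of this held for TSS-distal regions that were open more widely. Among the 8209 TSS-distal regions of all 4 LSK+ libraries, 10.9% held the GATA letters, 25.8% the ERG/FLI1-type, 11.9% the PU.1 and 34.1% the RUNX letters. Among the 4689 of all 8 libraries, LSK- included, these shares were 13.5%, 23.7%, 11.7% and 34.8%. The ETS motif already searched stood at 3.28% in the former set and 3.31% in the latter, close to its 3.30% in LSK+ top regions. PU.1 and RUNX matches were thus no more frequent in LSK+ top regions than in either set. Regions are not replicates and share libraries, so no test was made on these shares.

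**Figure D1:**
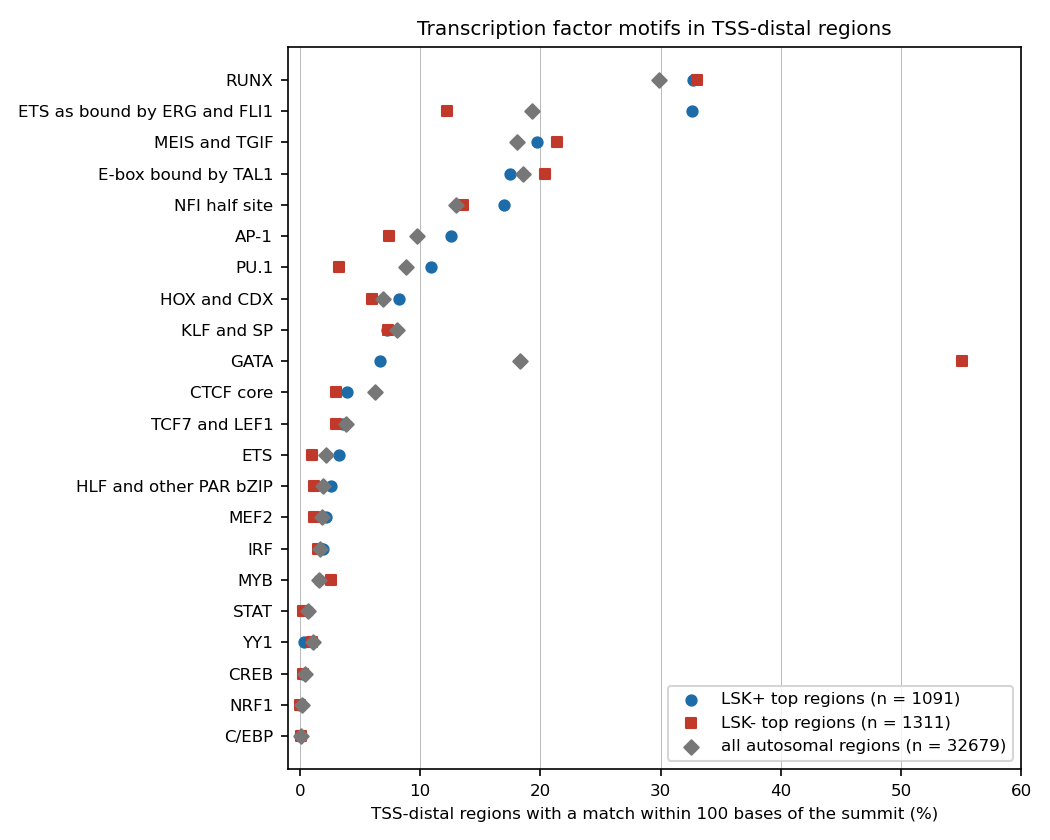
Share of TSS-distal regions (x axis, %) with a match to each of 22 motifs (y axis) within 100 bases of the summit, for LSK+ top regions (circles), LSK- top regions (squares) and all autosomal regions (diamonds). GATA stands at 6.69%, 55.1% and 18.3%, and the ERG/FLI1-type ETS motif at 32.6%, 12.2% and 19.3%.

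Matches were also placed differently within the regions. In bins of 20 bases, the GATA letters occurred in 0.504% of TSS-distal LSK+ top regions per bin next to the summit and in 1.03% per bin beyond 150 bases from it, so matches were fewer at the summit than in the flanks. In LSK- top regions the values were 8.12% and 1.30%, and over all TSS-distal regions 2.41% and 1.19%. The ERG/FLI1-type letters were denser at the summit of LSK+ top regions, with 5.82% per bin next to it and 1.18% beyond 150 bases, against 1.53% and 0.887% in LSK- top regions. The RUNX letters were densest at the summit in both sets (5.91% and 1.86% in LSK+, 5.15% and 1.74% in LSK- top regions).

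**Figure D2:**
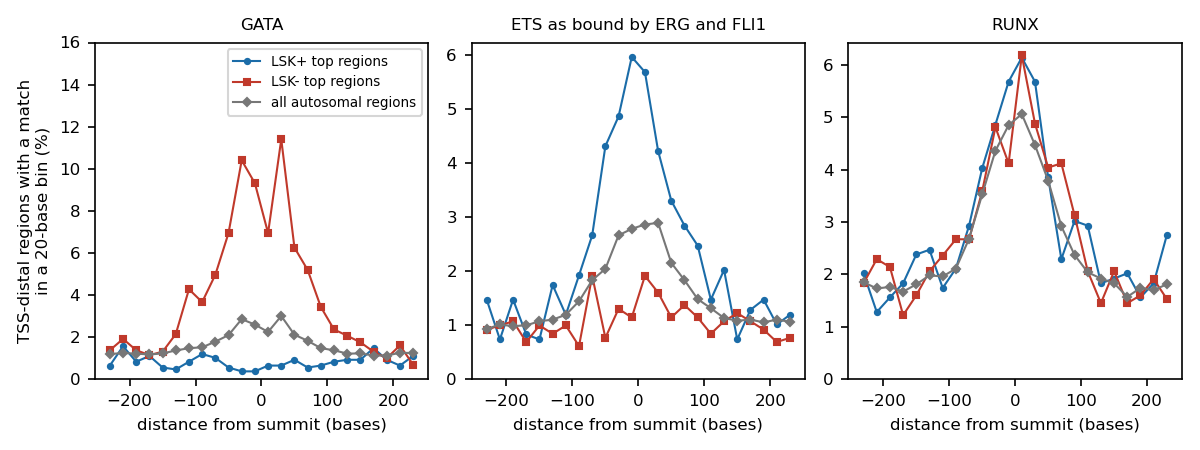
Share of TSS-distal regions (y axis, %) with a match in each 20-base bin, by distance from the summit (x axis, bases), for the GATA, ERG/FLI1-type ETS and RUNX motifs. At the summit the GATA curve of LSK+ top regions lies below its own flanks (0.504% against 1.03%), and the ETS curve averages 5.82% over the bins next to the summit.

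The GATA share of LSK+ top regions was below those of LSK- top regions and of all regions at promoters and in each class of base composition. Of the 252 TSS-proximal LSK+ top regions, 5.56% held the GATA letters, against 52.8% of TSS-proximal LSK- top regions and 7.88% of all TSS-proximal regions. Among the TSS-proximal regions of all 4 LSK+ libraries the share was lower still, at 3.93%. Median GC content of the TSS-distal windows was 51.0% in LSK+ top regions and 49.5% in both LSK- top regions and all regions. In windows under 45% GC, 12.4% of LSK+ top regions, 67.4% of LSK- top regions and 28.1% of all regions held the letters, and from 55% GC upwards 4.62%, 39.7% and 8.53% did. The share was 6.56% in TSS-distal regions that had the LSK+ pattern in WT alone and 7.29% in those that had it in XistΔ/Δ alone. Of the other motifs, the letters of MEIS and TGIF (TGACAG) occurred in 19.7% of TSS-distal LSK+ top regions and 18.1% of all, those of the E-box bound by TAL1 (CAGATG) in 17.5% and 18.6%, the NFI letters (TTGGCA) in 17% and 13%, and the site of HLF and its relatives (TTACNTAA) in 2.57% and 1.96%. The CTCF core (AGGGGGC) occurred in 3.94% against 6.22%. Both strands were searched, and CAGGAAG and GAGGAAGT cannot match at the same place of a strand. A match is a run of letters and does not show that a factor was bound.

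LSK+ top regions lay mostly away from promoters. A TSS of any gene lay within 3 kb of 252 of them (18.8%), against 37.2% of all autosomal regions, 56.3% of the regions held by all 4 LSK+ libraries and 19% of LSK- top regions. A further 303 (22.6%) lay 3 to 10 kb from a TSS, 630 (46.9%) at 10 to 50 kb, 101 (7.52%) at 50 to 100 kb and 57 (4.24%) farther away. The median distance of the 1091 TSS-distal ones was 17564 bp, against 15844 bp over all TSS-distal regions. Their summits fell in introns in 59.0%, between genes in 37.7% and in exons in 3.30%, against 55.6%, 40.1% and 4.35% over all. The median width was 666 bp. By chromosome, the share of autosomal regions that were LSK+ top regions ran from 2.05% (chromosome 9) to 3.49% (chromosome 19).

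Among the peaks of LSK+ cells, these regions were of middling rank. Ranks are given as percentiles within the top peaks of a library, with 100 for the strongest, and pairs of values below give replicates 1 and 2 of WT first and then those of XistΔ/Δ. The median percentile was 44.1 in LSK+ WT replicate 1, 40.1 in WT replicate 2, 45.7 in XistΔ/Δ replicate 1 and 27.2 in XistΔ/Δ replicate 2. XistΔ/Δ replicate 2 stood below the other 3 libraries. Over all 18768 autosomal regions of the 4 LSK+ libraries the medians were 66.6 to 67.4. A region's lowest percentile over the 4 libraries had a median of 19.2, and the highest was 75. That lowest value came from XistΔ/Δ replicate 2 in 720 regions, and from each of the other libraries in 163 to 266. Without XistΔ/Δ replicate 2, 2107 regions met the rule.

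**Figure D3:**
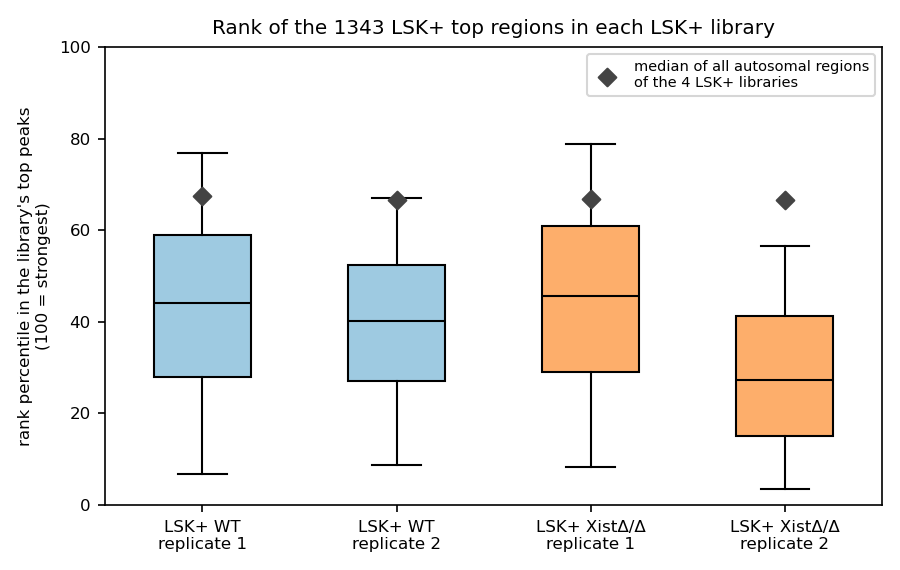
Rank percentile (y axis, 100 for the strongest peak) of the 1343 LSK+ top regions in each LSK+ library (x axis), WT in blue and XistΔ/Δ in orange. Boxes span the quartiles with the median as a line, whiskers the 5th to 95th percentile of regions, and diamonds the median of all 18768 autosomal regions of the 4 libraries. The boxes' medians are 44.1, 40.1, 45.7 and 27.2, all below the diamonds.

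The 12 strongest regions had a lowest percentile of 62.9 to 75, and 10 of the 12 were TSS-distal. The first lay in an intron of Mgat4b, an N-glycan branching enzyme (chr11:50232890-50233427, 645 bp from the closest TSS). It stood at percentiles 83.5 and 75 in WT, against 85.1 and 76.6 in XistΔ/Δ LSK+ cells, with fold enrichments over the local background of 10.3, 10.2, 11.8 and 13. In the LSK- lists it held peaks of 5.35-fold (WT replicate 1), 4.06-fold and 3.94-fold (XistΔ/Δ replicates 1 and 2) and none in WT replicate 2. Every listed LSK- value was thus below every LSK+ value, a direction that the selection on ranks favours.

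The region in an intron of Elmsan1, a histone deacetylase complex component (chr12:84206368-84207046), stood at 80.6 and 73.1 in WT, against 78.8 and 74.1 in XistΔ/Δ. The region in an intron of Astn2, an astrotactin of neurons (chr4:65403025-65403754), lay 201232 bp from any TSS and stood at 90.7 and 72.0 in WT, against 94.1 and 71.6 in XistΔ/Δ. The region 26204 bp from Tfcp2l1, a transcription factor of pluripotent cells (chr1:118711372-118712267), had no peak in any LSK- list and stood at 76.1 and 75.8 in WT, against 80.2 and 65.9 in XistΔ/Δ, with 15.3-fold, 14.4-fold, 16.4-fold and 21.5-fold enrichment. The genotypes overlapped at all of these. The others of the 12 lay nearest to Rab11fip4, Adra1b (an adrenergic receptor), Sall3, Tcerg1l, Ext2 (an enzyme of heparan sulfate synthesis), Cc2d2b, Wnt4 (a secreted Wnt ligand) and Myo5c. For Adra1b and Tcerg1l the gene body was 234702 and 347949 bp away, and the names give the closest gene, not a target.

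At the limit of the rule, the members just inside by their weakest LSK+ rank lay near Glis3 (rank 29822) and Fam170a (29815), and the regions just outside near Sipa1l1 (29842) and Slc44a3 (29844), all in LSK+ XistΔ/Δ replicate 2. On the LSK- side, members near Srl and Vegfa held LSK- peaks at ranks 29846 and 29856, and regions near Id2 and Lrrc30 were kept out by LSK- peaks at ranks 29825 and 29813. A further 1658 autosomal regions had a top peak in 3 of 4 LSK+ libraries and in no LSK- library, and 808 had one in all 4 LSK+ libraries and in 1 LSK- library.

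Most LSK+ top regions were open in LSK- cells too, at lower rank. Below the rank limit, the full LSK- lists held a peak at 1035 of the 1343 (77.1%) in WT replicate 1, at 353 (26.3%) in WT replicate 2, at 1172 (87.3%) in XistΔ/Δ replicate 1 and at 903 (67.2%) in XistΔ/Δ replicate 2. The background pileups of these libraries were 1.47, 0.992, 3.87 and 1.19, so the share moved with depth, whose part in it was not tested. A peak was listed in all 4 LSK- libraries at 275 regions (20.5%), in 3 at 534, in 2 at 311, in 1 at 139 and in none at 84 (6.25%). The term LSK+ identity thus held as a difference in rank for nearly all of them, and as an absence of listed LSK- peaks for 84. At the regions listed in both libraries of a pair, the median fold enrichment in LSK+ cells was 1.72 and 1.58 times that in LSK- cells in WT replicates 1 and 2, and 2.13 and 2.05 times in XistΔ/Δ. The rule itself sets the direction of these ratios. Their size is not a measure of how much more open the regions were, since the scale of fold differed between libraries. At the rank limit, fold was 9.78, 3.66, 11.5 and 12.7 in the LSK+ libraries, in the same order. The LSK- libraries had 5.85, 6.52, 4.36 and 7.98 there.

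**Figure D4:**
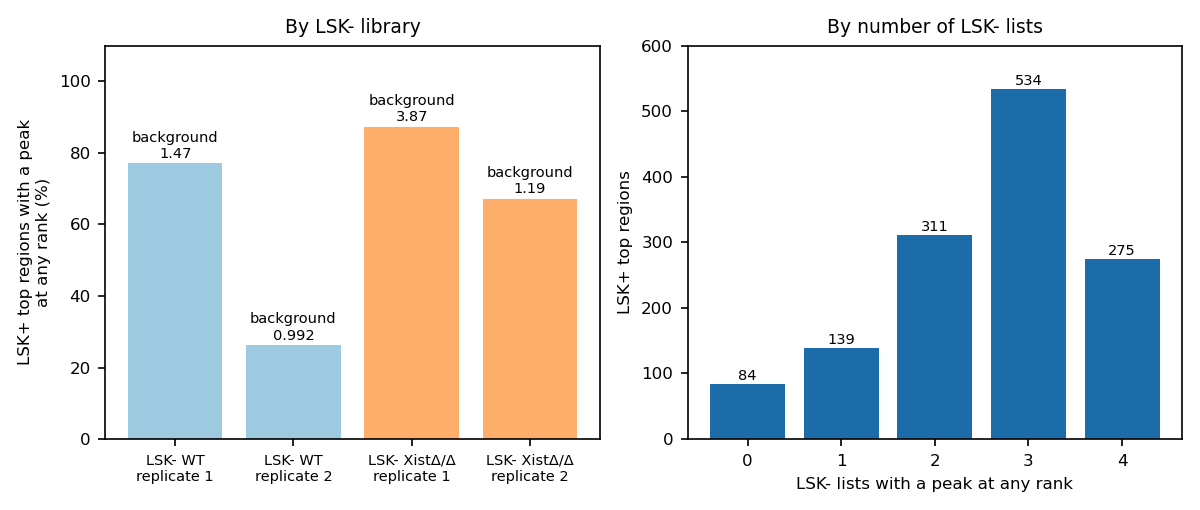
Left, share of the 1343 LSK+ top regions with a peak at any rank (y axis, %) in each LSK- library, with the library's background pileup in fragments above the bar. Right, number of regions (y axis) by the number of LSK- lists with a peak (x axis), with 84 regions in none and 275 in all 4.

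The share of LSK+ top regions with an LSK- peak was 51.7% ± 35.9 over the WT libraries and 77.3% ± 14.2 over the XistΔ/Δ libraries (SD, n = 2 each). The difference was 25.6 percentage points, and the values of the genotypes overlapped. No p-value is given, since the rule used the LSK- ranks. The share is also bounded by how many peaks a list holds below the limit, from 37578 peaks in all in WT replicate 2 to 91590 in XistΔ/Δ replicate 1. Without LSK- WT replicate 2 it was 1.02 points, and without WT replicate 1 it was 53.1. Without XistΔ/Δ replicate 1 it was 16.1. Within replicate 1 it was 10.2 points and within replicate 2 it was 41.0. Of the regions, 87 (6.48%) had a peak in both XistΔ/Δ and no WT LSK- list, and 3 (0.223%) the reverse. No share over all autosomal regions stands beside these counts, so they are not read as a genotype effect. WT replicate 2, with the shortest LSK- list, held a peak at 26.3% of the LSK+ top regions. The part of list length in the counts was not tested.

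The 84 regions with no LSK- peak at any rank were TSS-distal in 77 cases (91.7%). The strongest after that of Tfcp2l1 lay in an intron of Arhgef10, a guanine nucleotide exchange factor (percentiles 67.2 and 63.2 in WT, 78.4 and 59.2 in XistΔ/Δ), 140868 bp from Mtx2 (82.3 and 54.6, 82.5 and 59.3), and in introns of Plbd2 (67.3 and 60.5, 75.9 and 53.0) and Asic2 (78.3 and 48.7, 65.9 and 49.9). They were named after their values were seen. Of the 77 TSS-distal ones, 5.19% held the GATA letters and 31.2% the ERG/FLI1-type letters, against 6.80% and 32.7% of the TSS-distal regions with an LSK- peak.

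At genes of stem cells, the share of LSK+ top regions was near that over all autosomal regions. For 32 stem cell transcription factors, 10 of 293 regions (3.41%) were LSK+ top regions, against 2.58% over the autosomes, and 10 were LSK- top regions. They lay at 7 genes, and 64 of the 293 regions were held by all 8 libraries. Runx1, a master regulator of blood formation, had 3. The strongest, 77705 bp from the gene (chr16:92903854-92904463), stood at 72.7 and 52.3 in WT, against 83.7 and 59.0 in XistΔ/Δ. The second intergenic one stood at 30.8 and 15.0 in WT, against 2.2 and 20.6 in XistΔ/Δ, and the one in an intron at 1.40 and 24.9, and 33.8 and 18.9. The genotypes overlapped at all 3.

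Mecom, whose product EVI1 maintains stem cells, had 2 regions in introns (chr3:30329902-30330781 and chr3:30455799-30456598), with percentiles of 25.9 and 43.9 in WT, against 30.2 and 21.4 in XistΔ/Δ for the first, and 38.9 and 14.3, and 27.2 and 21.1, for the second. Erg, an ETS factor of stem cells, had 1 in an intron (35.2 and 54.7 in WT, 23.0 and 34.3 in XistΔ/Δ). There both WT values were above both XistΔ/Δ values, with a gap of -0.912 percentiles between the nearest libraries. Lmo2, a bridging protein of the TAL1 and GATA complexes, had 1 at 26557 bp from the gene (21.1 and 49.0, 49.0 and 21.5). Prdm16 had 1 in an intron (17.1 and 34.1, 13.9 and 25.5). Nr4a1, a nuclear receptor, had 1 at 9817 bp from the gene (76.9 and 51.7, 64.3 and 43.4). Foxo3, a factor of quiescence, had 1 at 58547 bp from the gene (19.4 and 18.4, 13.8 and 33.2). No region near Meis1, Hlf or Flt3 met the rule.

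Among 25 stem cell surface and receptor genes, 6 of 156 regions (3.85%) were LSK+ top regions. The region in an intron of Vwf, the von Willebrand factor of platelets and platelet-biased stem cells (chr6:125594691-125595397), stood at 78.4 and 46.0 in WT, against 78.1 and 66.5 in XistΔ/Δ. Its fold enrichment was 17.1, 9.05, 19.6 and 24 in LSK+ cells and 9.53, 8.06 and 9.35 in the 3 LSK- libraries that listed it. The value of LSK+ WT replicate 2 thus lay below 2 of the LSK- values. Adgrg1, an adhesion receptor, had 2 (78.2 and 69.6, 78.1 and 29.1 for the stronger). A single region lay near Cd48 (50.9 and 22.9, 57.2 and 24.1), a protein absent from the most primitive stem cells. Another was assigned to Cxcr4, the receptor of CXCL12, at 218323 bp from the gene (29.2 and 32.6, 38.2 and 5.32). Of 136 regions at 24 other stem cell genes, 1 (0.735%) was an LSK+ top region, at Hmga2, and 7 were LSK- top regions.

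**Figure D5:**
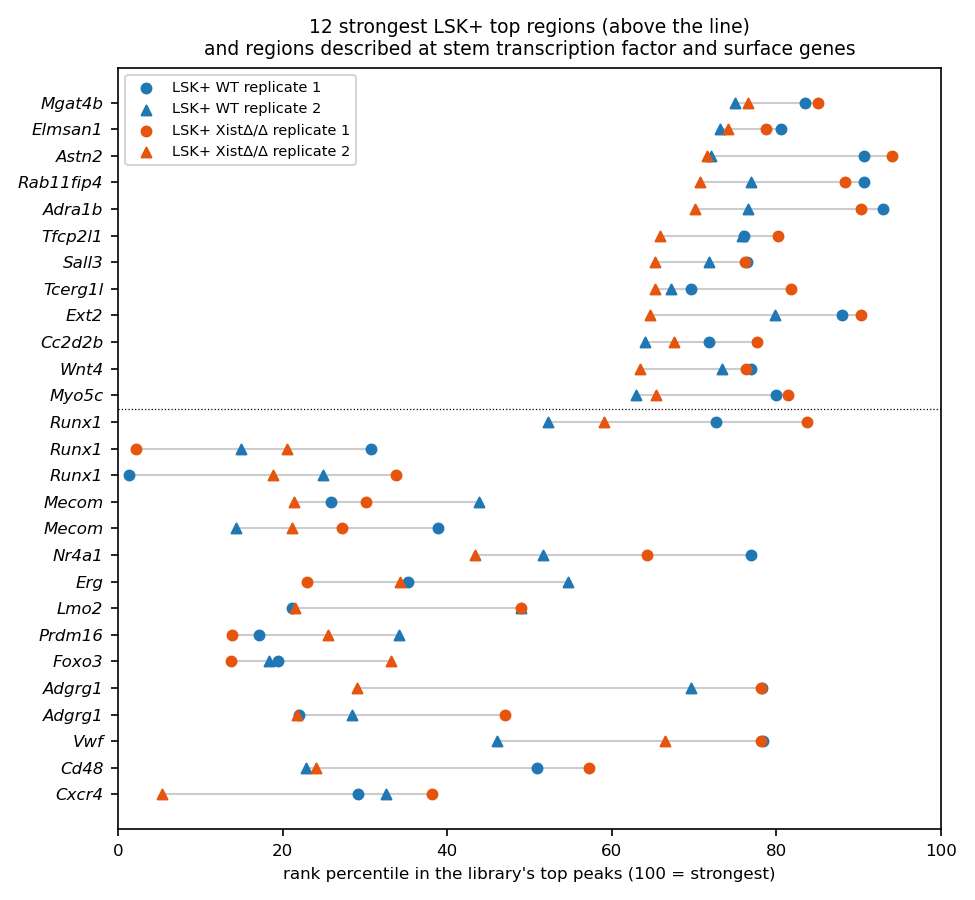
Rank percentile (x axis, 100 for the strongest peak) of the 12 strongest LSK+ top regions (above the dotted line) and of the regions described at stem cell transcription factor and surface genes (below), labelled by gene. WT is blue and XistΔ/Δ orange, with circles for replicate 1 and triangles for replicate 2. The 12 strongest stay at or above 62.9 in every library, and the stronger Adgrg1 region spans 29.1 to 78.2.

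At genes of lymphoid priming, 9 of 235 regions (3.83%) at 6 of 30 genes were LSK+ top regions and 7 were LSK- top regions. The strongest near Tcf4, an E protein of plasmacytoid dendritic cells, lay 415992 bp from the gene and stood at 82.8 and 65.4 in WT, against 80.4 and 61.1 in XistΔ/Δ. The 2 regions assigned to Id2, an inhibitor of E proteins, lay 157563 and 142770 bp from the gene. The first, which was the stronger, stood at 73.3 and 62.1, and 73.5 and 59.2. Bcl11a, a factor needed for lymphoid development, held 2 in introns (70.7 and 57.7, 75.1 and 46.6 for the stronger). The chemokine receptor genes Ccr7 and Ccr9 and the B cell adaptor Blnk had 1 each.

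At erythroid and megakaryocyte genes the balance lay with LSK- cells, with 4 LSK+ and 18 LSK- top regions among 107 (3.74% and 16.8%). Zfpm1, the GATA1 cofactor FOG1, had 2 of the 4. The region in its intron (chr8:122331070-122331626) stood at 63.8 and 49.5 in WT, against 82.0 and 74.9 in XistΔ/Δ, with a gap of 11.1 percentiles and no overlap. The one 1765 bp from its TSS (chr8:122283906-122285289) stood at 35.4 and 39.8 in WT, against 3.78 and 4.36 in XistΔ/Δ, with a gap of -31.0 percentiles and no overlap. The other regions were at the promoter of Gp9, a platelet glycoprotein (53.1 and 40.2, 58.9 and 35.5), and in an intron of the red cell ankyrin Ank1 (27.5 and 33.4, 16.2 and 16.8).

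At granulocyte and monocyte genes 1 of 107 regions was an LSK+ top region, the promoter of the neutrophil granule gene Ltf (32.2 and 22.5, 27.4 and 16.8), and 0 were LSK- top regions. Interferon response genes had 2 of 88 (2.27%), near Irf2 and Ifit2. The Ifit2 region lay in an exon 13035 bp from the closest TSS, had no LSK- peak, and stood at 60.3 and 59.8 in the replicate 1 libraries of WT and XistΔ/Δ and at 10.5 and 12 in the replicate 2 libraries. Endothelial and stromal genes had 3 of 96 (3.12%), within Stab2 and Pdgfrb and at 123576 bp from Kdr. Genes of mature B and T cells had 0 of 14 and mast cell and basophil genes 0 of 19.

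LSK+ top regions were spread over many genes. They were assigned to 1193 of 20780 autosomal protein-coding genes, 1060 of which had 1 region, 118 had 2, 13 had 3 and 2 had 4. For 921 of the 1343 the nearest gene of any type was the same protein-coding gene. Within 50 kb of another LSK+ top region lay 157 (11.7%), against 304 of 1618 (18.8%) LSK- top regions, and the median distance to the next was 412788 and 227212 bp. These 157 formed 77 pairs and 1 group of 3, in and beside Mdga1, a cell adhesion gene. The group spanned 65.1 kb (chr17:29886480-29951607). It held 6 regions in all, of which 0 were LSK- top regions and 0 had a top peak in all 8 libraries. Below the rank limit, the 3 members held a peak in 3, in 4 and in 0 of the LSK- lists.

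The genes with 4 were Gse1, which encodes a corepressor subunit, and Ust, a sulfotransferase of glycosaminoglycans. Of the regions assigned to Gse1, 4 of 40 were LSK+ top regions, and the strongest stood at 71.1 and 60.8 in WT, against 60.3 and 42.4 in XistΔ/Δ. Of the regions assigned to Ust, 4 of 11 were, 3 in its introns and 1 at a distance of 27814 bp from the gene, and the strongest stood at 84.9 and 48.9, and 81.5 and 37.3, with both replicate 1 libraries above both replicate 2 libraries. Of the genes with 3, Ntn1, the guidance cue netrin, had 3 of 6 regions, and Mical2 (an actin oxidase) had 3 of 8. Runx1 with 3 of 29 also had 3 LSK- top regions.

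Between genotypes, the ranks of LSK+ top regions in LSK+ cells overlapped. The median percentile was 42.1 ± 2.81 over the WT libraries and 36.4 ± 13.1 over the XistΔ/Δ libraries (SD, n = 2 each), a difference of -5.66. No p-value is given, since the rule used these ranks and required a top peak in both genotypes. Within replicate 1 the difference was 1.60, and within replicate 2 it was -12.9. Without XistΔ/Δ replicate 2 it was 1.72. Replicates 1 and 2 were listed by the study on different sequencing platforms. At a given region, the median gap between the WT replicates was 13.7 percentiles and between the XistΔ/Δ replicates 19.1, and between genotypes 11.4 within replicate 1 and 15.1 within replicate 2. The genotype gaps thus lay below the gap between the XistΔ/Δ replicates, and on either side of that between the WT replicates. Over all 18768 autosomal regions of the 4 LSK+ libraries, the gap was 10.7 between the WT and 12.8 between the XistΔ/Δ replicates. Between genotypes it was 6.92 within replicate 1 and 6.18 within replicate 2, below both replicate gaps.

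Region by region, both XistΔ/Δ percentiles were above both WT percentiles at 91 of 1343 (6.78%), and below them at 263 (19.6%). Over all 18768 autosomal regions of the 4 LSK+ libraries, the shares were 9.56% above and 11.5% below. The balance depended on the list size. With all deposited peaks, which gave 715 regions, 134 were above and 12 below. The larger share below stands beside the low ranks in XistΔ/Δ replicate 2, whose part in it was not tested. The 5 largest gaps upwards lay near Vegfa, the endothelial growth factor (6.34 and 1.62 in WT, 48.9 and 47.3 in XistΔ/Δ), Fcmr, the IgM receptor (20.3 and 22.2, 62.2 and 50.5), Katnal1, Ppm1h and Fbxw4. The regions of Vegfa and Katnal1 lay 42076 and 101663 bp from the gene. The 5 largest downwards lay near Ube2ql1 (80.5 and 69.6, 30.2 and 3.00), 9030025P20Rik, Mboat2 (51.3 and 63.3, 16.5 and 19), Ptprm and Klhl3 (62.9 and 63.5, 21.1 and 31.8). Such single regions carry no test.

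The rule was also applied to each genotype alone. With the rule applied to WT alone, 3137 autosomal regions had it, and 1343 of them (42.8%) were LSK+ top regions. With XistΔ/Δ alone, 3565 had it, of which the same 1343 were 37.7%. Of the 1794 regions of WT alone, 1515 (84.4%) lacked a top peak in a XistΔ/Δ LSK+ library and 419 (23.4%) had one in a XistΔ/Δ LSK- library. Of the 2222 of XistΔ/Δ alone, 1445 (65.0%) lacked one in a WT LSK+ library and 1236 (55.6%) had one in a WT LSK- library.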

How the data were processed

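ATAC-seq libraries of LSK+ and LSK- cells (8 in all, 2 per group, grouped by their titles) were analysed from the deposited peak lists. The authors trimmed reads with TrimGalore, aligned them to mm10 with Bowtie2 2.3.5.1, removed alignments of quality under 30 and mitochondrial reads with SAMtools 1.10, and called peaks per library with MACS2 2.2.7.1 at a q-value limit of 0.01. The sources used here give no control library, duplicate removal or Tn5 shift. The deposited lists give a score, the fold enrichment (a ratio over the local background), the −log10 p-value and the −log10 q-value of each peak. Ranks by −log10 p are comparable within a list, and a deeper library reaches the same p at weaker sites. Read counts per peak were not analysed here.

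Peaks on chromosomes 1 to 19 and X were ranked and merged at 1 bp of overlap (Python 3.11.15, NumPy 2.4.6, SciPy 1.17.1). Region building and the solving of summit pileup from fold and p were tested on simulated data. The solved p matched within 0.01 for 100% of peaks. Genes came from GENCODE M21 (basic) on GRCm38.p6, whose chromosome lengths hold all peaks. Regions within 3 kb of a TSS took the gene of that TSS if protein-coding, the others the closest protein-coding gene body. Genotype differences are described without p-values, since the rule used the ranks they rest on. The paper calls its ATAC-seq replicates biological, but nothing in the labels says whether they came from separate mice. The SD thus covers the spread between libraries, which may be technical in part.

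The regions, gene lists and motifs were chosen with earlier results of these data known. Named regions were the 12 with the highest lowest percentile, those of list genes, the genes with most regions, the values at the rank limit and the 5 largest genotype gaps in each direction. Alternatives were ranking by fold, other list sizes and limits, other TSS windows and leaving out each library. A few named genes of the lists are not reported here.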

Additional observations from a re-analysis of the deposited data

Results flagged for a closer look

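On chromosome X, which the rule for LSK+ top regions leaves out, 30 of 1186 regions (2.53%) held a top peak of all 4 LSK+ libraries and of no LSK- library, and were noted because the comparisons above do not use them. Of these, 20 (66.7%) were TSS-distal. Their median percentile in LSK+ libraries was 39.0 and 37.1 for WT, against 51.2 and 24.7 for XistΔ/Δ. Both XistΔ/Δ percentiles were above both WT percentiles at 3 of the 30 and below them at 4. The strongest lay near Nhs (39.5 and 44.3 in WT, 74.6 and 40.7 in XistΔ/Δ).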

How the results depend on the processing

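The number of LSK+ top regions was 619 with 14914 top peaks per library and 715 with all deposited peaks, and 1391 to 2107 (the highest without LSK+ XistΔ/Δ replicate 2) when one library was left out. The TSS-distal share moved from 81.2% to 85.2% with ranking by fold, 78.9% with all peaks, 77.9% when a top peak had to cover 50% of the region, 88.4% with a TSS window of 1 kb and 89.7% with TSSs of protein-coding genes alone, and was 79.5% to 82.0% with one library left out. The genotype difference in median percentile turned to 10.5 with all peaks and ran from -14.4 to 1.72 with one library left out. As a difference in median −log10 p it was 23.8, and the part of depth in this was not tested. Ordered by background pileup (0.482, 0.962, 1.16 and 1.82), the LSK+ libraries had median −log10 p values of 13.3, 37.4, 35.1 and 58.5. The difference in LSK- peaks ran from 1.02 to 53.1 points in the same way, and was 5.33 points with 14914 top peaks. It could not be computed with all peaks, since no LSK- peak remains. Regions higher in both XistΔ/Δ libraries numbered 35 with 14914 peaks and 134 with all peaks, and those lower in both (a count chosen after seeing the data) 63 and 12, so the balance of 91 against 263 turned round with all peaks. Regions at stem cell transcription factor genes numbered 6 with ranking by fold and 6 with all peaks, and 11 to 18 (again highest without LSK+ XistΔ/Δ replicate 2) with one library left out. The GATA share (alternatives chosen after seeing the data) was 3.61% with 14914 peaks, 2.66% within 50 bases of the summit and 5.19% without any LSK- peak, against 6.02% to 7.26% with one library left out. The cause of these shifts was not tested.

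Libraries of the same replicate number deviated together (correlation 0.60 in LSK+ and 0.50 in LSK-). With the replicate number as a block, the differences are -5.66 percentiles and 25.6 points by construction. The mean of the differences within replicates equals the difference of the group means in this design. The block thus does not show that they hold across replicates, and no p-value is given for either.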
